A study of Mus musculus with 18 samples.

Results

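The 10 genes Lyve1, Stab1, Stab2, Pecam1, Cdh5, Kdr, Flt1, Tek, Tie1 and Eng mark the cells that line blood and lymph vessels. They were chosen by symbol, with earlier results of these data known. The Ensembl identifiers of the deposited tables gave their rows, 10 of 46078 identifiers. The 18 libraries of total RNA came from female mice in 8 groups. Primary tail-tip fibroblasts gave 3 libraries from mice with an Xist homozygous deletion, called mutants here, and 3 from mice with an Xist heterozygous deletion, the controls. Spleen, liver and brain were taken at postnatal day 1 and gave 2 mutant and 2 control libraries each, with the same genotypes. All groups therefore carried at least 1 deleted Xist allele, although the control columns are named WT. The study's design text names heart as the third organ where the sample labels say brain, and neuron markers summed to a signal of 6821 to 8059 in the controls of that table, against 12.5 to 15.5 in control liver and spleen. No age is given for the fibroblasts.

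Endothelial cells line every vessel and are held together by junction proteins such as VE-cadherin. They respond to vascular endothelial growth factor through the receptors Kdr and Flt1, to angiopoietins through Tek, and to circulating bone morphogenetic proteins with the help of Eng. The open sinusoids of liver and spleen have a special endothelium that clears hyaluronan and other waste from blood through the scavenger receptors Stab1 and Stab2, while brain capillaries form a tight barrier.

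Signal means here the authors' scaled count of a gene, close to CPM. Reads in genes ranged from 12356231 to 29154395 per library. Xist, the deleted gene, had a signal of 70.5 to 141 in control and 2.33 to 13.5 in mutant fibroblasts. It was 1121 to 1205 against 51.2 to 117 in spleen, 594 to 730.4 against 178 to 257 in liver, and 666 to 683 against 3.62 to 4.15 in brain. Replicate 1 of the spleen mutants was unlike the other libraries, since 13 satellite-like genes took 3.01% of its reads and 32381 genes had a read, and replicate 1 of the liver controls had 1.76% in those genes. In the other libraries that share was at most 0.394%. In each organ and genotype it was higher in replicate 1 than in replicate 2. The labels call the replicates biological.

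The 10 genes lie on 8 autosomes and none is X-linked. RefSeq promoter entries (GRCm38.p6) were matched for 7 of them, and for Lyve1, Pecam1 and Cdh5 there was no match. Promoters of 3 genes with unlike control levels are shown, a scavenger receptor highest in liver (Stab1), a growth factor receptor highest in spleen (Flt1) and the member that fibroblasts also held at a high level (Eng). Each run gives the 250 bases before the start in the RefSeq entry, 5′ to 3′ on the gene's strand. Capitals mark AGGAAG, its variant CGGAAG or the reverse complement of either, letters bound by ETS factors, the family of the endothelial regulator Erg.
Stab1, chr14:31168642-31168891, minus strand: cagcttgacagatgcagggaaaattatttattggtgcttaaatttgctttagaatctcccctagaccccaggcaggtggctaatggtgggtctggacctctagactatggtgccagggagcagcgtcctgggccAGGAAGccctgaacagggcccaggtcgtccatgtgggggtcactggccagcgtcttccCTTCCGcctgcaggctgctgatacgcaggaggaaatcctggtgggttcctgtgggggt
Flt1, chr5:147726012-147726261, minus strand: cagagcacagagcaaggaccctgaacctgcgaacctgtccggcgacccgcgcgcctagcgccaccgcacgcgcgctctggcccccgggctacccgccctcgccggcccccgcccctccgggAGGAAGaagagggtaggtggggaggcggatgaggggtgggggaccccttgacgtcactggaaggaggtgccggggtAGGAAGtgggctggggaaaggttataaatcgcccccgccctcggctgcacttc
Eng, chr2:32646345-32646594, plus strand: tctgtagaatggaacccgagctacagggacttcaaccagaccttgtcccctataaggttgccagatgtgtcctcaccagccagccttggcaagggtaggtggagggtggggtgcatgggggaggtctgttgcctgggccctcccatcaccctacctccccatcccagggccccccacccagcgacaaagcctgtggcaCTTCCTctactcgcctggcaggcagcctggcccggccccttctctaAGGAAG
Over the table's full windows of 300 bases, from 250 before to 50 after the start, and on both strands, AGGAAG stood in 5 of the 7 promoters and in 35.4% of all 32851 promoters. CGGAAG stood in 2 of 7 and in 16.9% of all. The GATA letters AGATAA stood in 1 of 7, that of Tek, and in 11.2% of all. The Kdr window held none of the 3. A match is a run of letters and not a measured binding site.

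Control levels were compared between genes and tissues as CPM of genes per kilobase of exon, called level per kb below. The 4 tables were normalized separately, so these levels are described without a test. Lyve1 and Stab1 were highest in liver, and the other 8 genes were highest in spleen.

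Lyve1 encodes a hyaluronan receptor of lymphatic and sinusoidal endothelium and of some macrophages. Its mean control level per kb was 36.8 ± 0.54 (SD, n = 2) in liver, 2.50 ± 0.54 (n = 2) in brain, 1.39 ± 0.42 (n = 2) in spleen and 0.0150 ± 0.0260 (n = 3) in fibroblasts. No neighbouring tissues overlapped in this order, and the liver mean was 26.4 times the spleen mean. Of the 10 genes Lyve1 had the highest level per kb in control liver and the lowest in control spleen.

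Stab2, the clearance receptor for hyaluronan, had a control level per kb of 65.1 ± 31.4 in spleen, the highest of the 10 genes there, and 25.6 ± 0.10 in liver (SD, n = 2 each). In control brain it was 0.0622 ± 0.0449 (n = 2), from 5 and 19 reads, and 2 of the 3 control fibroblast libraries had no read, where 3 reads, the limit for a count of 0 by counting error alone, would be a signal of 0.135 or less. Stab1, a related scavenger receptor that macrophages also carry, had a level per kb of 18.8 ± 2.14 in liver, 12.6 ± 0.11 in spleen and 3.12 ± 0.35 in brain (n = 2 each). Its fibroblast level was 0.0396 ± 0.0119 (n = 3). Stab1 was therefore present in brain where Stab2 was close to 0. Stab1 and Stab2 share 112 and 141 exon bases with Nt5dc2 and Gm16268 on the opposite strand, and Eng shares 61 with Fpgs. The sources used here do not say whether reads were counted by strand.

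The other 7 genes had their highest control level per kb in spleen, followed by liver. VE-cadherin, the junction protein encoded by Cdh5, had a level per kb of 43.5 ± 12.8 in spleen, 21.9 ± 4.02 in liver and 9.23 ± 0.97 in brain (SD, n = 2 each), and it led the 10 genes in brain. Control liver and brain overlapped for Flt1, at 2.44 ± 0.59 and 2.25 ± 0.04, while the other 6 genes were 1.90 to 3.72 times higher in liver than in brain. Eng, the co-receptor for bone morphogenetic proteins that many mesenchymal cells also carry, was the member that fibroblasts held, at 16.4 ± 1.46 (n = 3), above brain at 6.78 ± 0.15 (n = 2). Tek, the receptor for angiopoietins, followed in fibroblasts at 1.14 ± 0.25 (n = 3). The 8 other members had fibroblast levels per kb of 0.209 or less, so the fibroblast cultures held few transcripts of the defining endothelial genes.

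**Figure D1:**
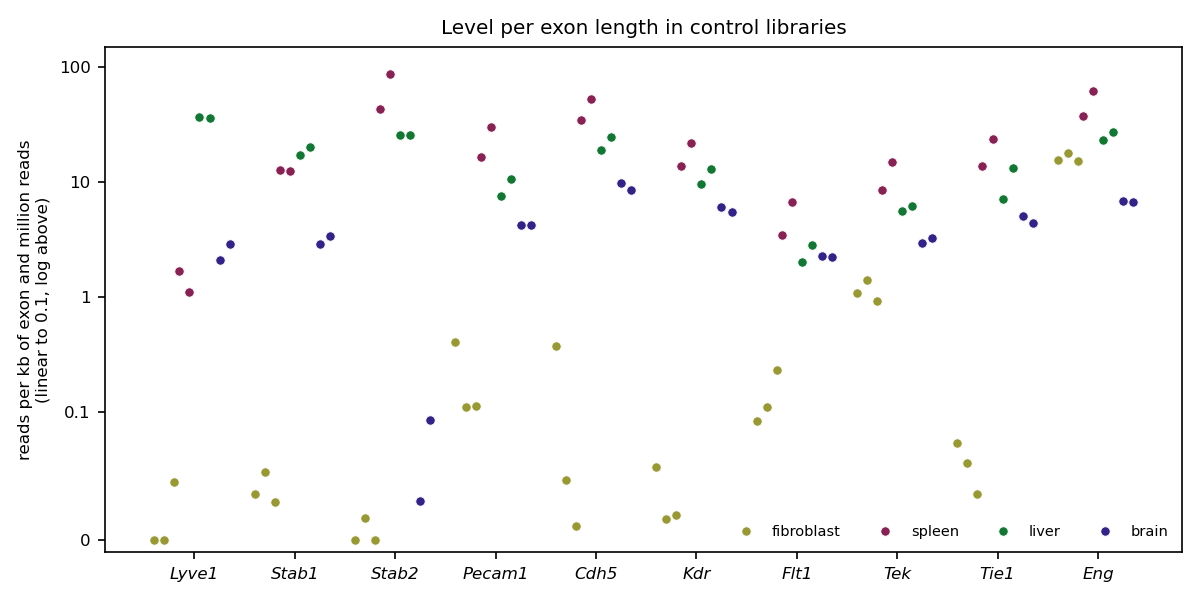
Level per kb (CPM per kilobase of exon, log axis above 0.1 and linear below) of each of the 10 genes in each control library of 4 tissues. Lyve1 is far higher in liver (36.8) than in spleen (1.39), Stab2 is near 0 in brain (0.0622), and Eng is the 1 gene that is high in fibroblasts (16.4).

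Mutants were then compared with controls within each tissue. With limma on log2(signal + 0.5), 0 of the members passed an adjusted p of 0.05 in fibroblasts, spleen, liver or brain. The number tested was 4, 10, 10 and 9, because 6 members in fibroblasts and Stab2 in brain had a mean signal under 1. Of all genes tested limma called 0% in the first 3 tissues and 0.0235% in brain. edgeR's quasi-likelihood test on recovered reads also called 0 members, against 0% of all genes in the first 3 tissues and 0.0235% in brain. DESeq2 called 1 member, Lyve1 in spleen. Its shares of all genes were 0.0229% in fibroblasts, 1.08% in spleen, 1.42% in liver and 0.241% in brain, and the shares called higher in mutants were 0.00763%, 0.931%, 0.978% and 0.212%. At an unadjusted p under 0.05, limma and edgeR each gave 1 member in spleen and 1 in liver, DESeq2 gave 3 and 1, and each tool gave 0 in brain and fibroblasts. At that unadjusted p the shares of all genes with limma, edgeR and DESeq2 were 6.26%, 7.09% and 9.05% in spleen and 6.66%, 6.89% and 6.97% in liver. They were 4.06%, 4% and 2.46% in brain and 0.976%, 1.03% and 1.3% in fibroblasts.

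In spleen the members were mostly higher in the mutants. Both mutant libraries lay above both controls for 6 of 10 members, against 18.3% of all genes tested, and below them for 0 of 10, against 21.9%. The log2 fold change was above 0 for 9 of 10 members, against 43.5% of all genes, and the median was 0.51, against -0.07 over all genes. Replicate 1 of the mutants, which stood apart, was the highest spleen library for 8 of the 10 members, and replicate 1 of the controls was the lowest for 8. Without that mutant replicate the median was 0.31, against -0.01 over all genes, with 10 of 10 above 0, against 48.6% of all genes. The remaining mutant then lay above both controls for 6 of 10 members, against 30.4% of all genes. Without that control replicate the median was 0.37, against -0.05 over all genes, with 8 of 10 above 0. The share of all genes above 0 was not counted in that setting. In bulk tissue, more cells of a type and more RNA per cell cannot be told apart.

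Lyve1 showed the largest difference among the members in spleen. Its signal was 5.52 and 3.04 in the controls and 26.4 and 11.1 in the mutants, from 80 and 51 reads against 351 and 208. Both mutants lay above both controls, but they differed from each other by more than the controls did. The log2 fold change was 1.94 with an SE of 0.49 and an adjusted p of 0.543 in limma, and 2.20 with an adjusted p of 0.00868 in DESeq2. That DESeq2 call was lost without mutant replicate 1, where the log2 fold change was 1.38 and the adjusted p 0.999982. Without each other library in turn DESeq2 kept the call, with adjusted p-values of 0.0047 to 0.0274. Of all genes it then called 0.745% without control replicate 1, 0.487% without mutant replicate 2 and 0.348% without mutant replicate 1.

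The adhesion and junction genes were also separated. Pecam1, an adhesion molecule of endothelium that platelets and leukocytes also carry, had a spleen signal of 116 and 179.6 in controls and 313 and 203 in mutants. Cdh5 had 162 and 209.9 against 338 and 236. The log2 fold changes were 0.80 (SE 0.36) and 0.61 (SE 0.32), and limma gave each an adjusted p of 0.778. Without mutant replicate 1 they were 0.49 and 0.35, and without control replicate 1 Pecam1 was at 0.49.

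Among the growth factor receptors, Kdr, the main signalling receptor for vascular endothelial growth factor, had a spleen signal of 140.0 and 186 in controls and 213 and 202 in mutants. Flt1, which also binds vascular endothelial growth factor and limits its supply, overlapped between the groups at 52.3 and 85.6 against 102 and 74.4. Tek had 44.9 and 66.4 against 136 and 67.6. The second Tek mutant barely exceeded the higher control, and the log2 fold change of 0.81 (SE 0.40, limma adjusted p 0.778) was 0.31 without mutant replicate 1 and 0.53 without control replicate 1. Tie1, the partner receptor of Tek, overlapped at 76.0 and 112 against 173 and 111. Pecam1 and Tek were called by DESeq2 only without control replicate 2, with adjusted p-values of 0.0101 and 0.0362, a setting in which DESeq2 called 9.39% of all genes.

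Stab2 and Eng, the most abundant members in control spleen by level per kb, had nearly the same group means. Stab2 had a signal of 421 and 727 in controls and 431 and 700.2 in mutants, so each group held a low and a high library, and the log2 fold change was -0.01 (SE 0.42). Eng had 171 and 237 against 211 and 222, with a log2 fold change of 0.10 (SE 0.30). Stab1 was separated, at 145 and 122 against 199 and 163, with a log2 fold change of 0.43 (SE 0.28) and a limma adjusted p of 0.778.

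**Figure D2:**
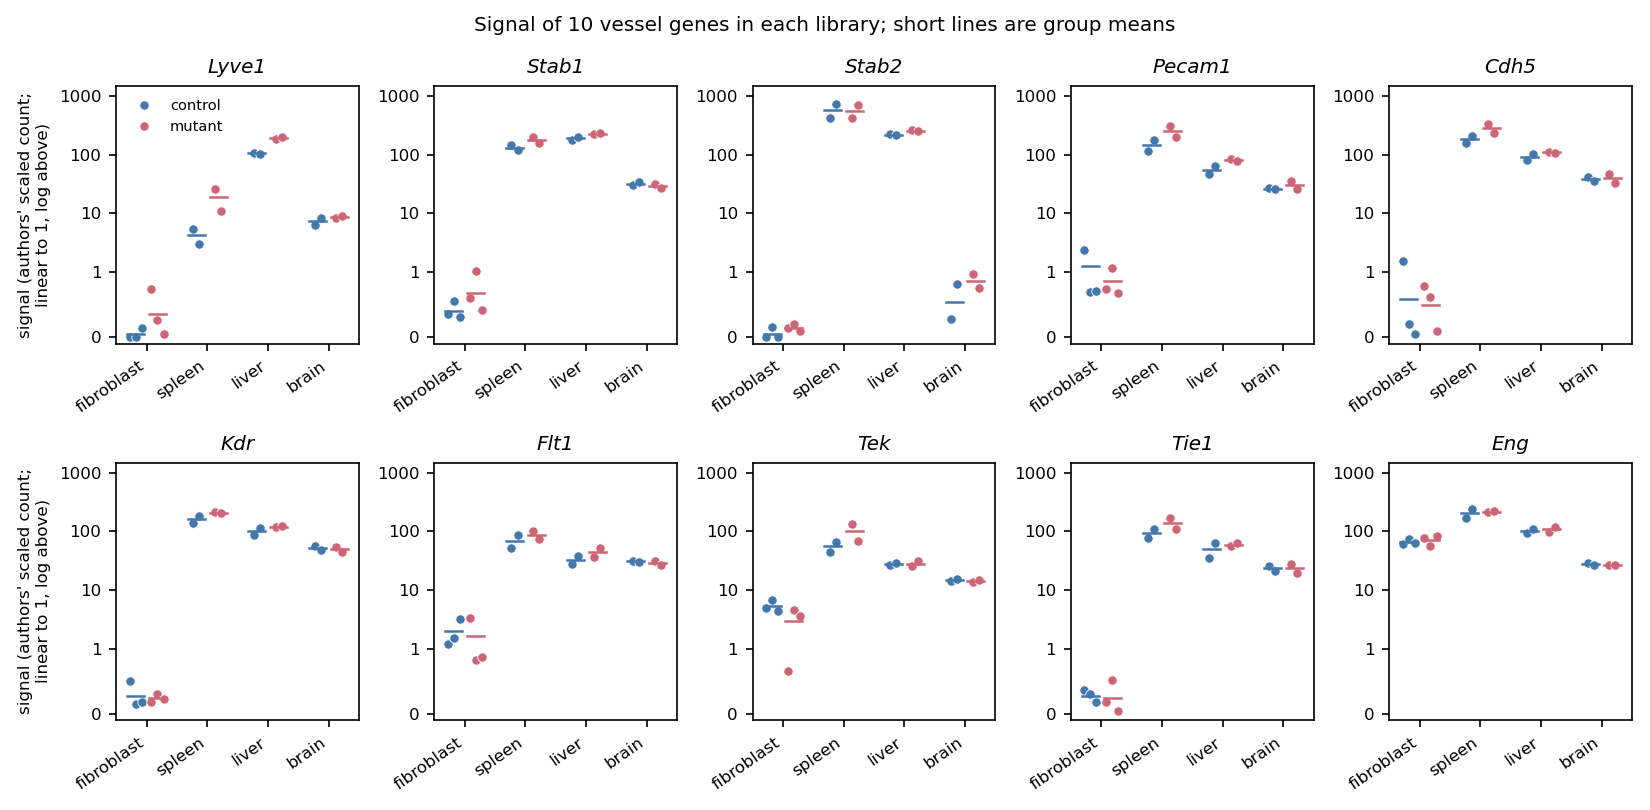
Signal (the authors' scaled count, log axis above 1 and linear below) of each of the 10 genes in every library, by tissue, with controls in blue, mutants in red and group means as short lines. In spleen both Lyve1 mutants (26.4 and 11.1) lie above both controls (5.52 and 3.04), while the Stab2 groups cover the same range.

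In liver all 10 members had a log2 fold change above 0, with a median of 0.27, against 0.05 over all genes, of which 55.9% were above 0. Both mutants lay above both controls for 6 of 10 members, against 23.4% of all genes tested, and below them for 0 of 10, against 13.1%. The 6 were Lyve1, Stab1, Stab2, Pecam1, Cdh5 and Kdr. Replicate 1 of the liver controls, the library with 1.76% satellite-like reads, was the lowest for 7 of 10 members. Without it the median was 0.14, against 0.0003 over all genes, with 8 of 10 above 0. The share of all genes above 0 was not counted in that setting.

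Lyve1 again had the largest difference in liver, with a signal of 109 and 105 in controls and 185 and 204 in mutants. The group means were 107 ± 2.95 and 194 ± 13.2 (SD, n = 2 each), a ratio of 1.82. An SD from 2 libraries is a poor guide to the spread. The log2 fold change was 0.86 (SE 0.21), with an adjusted p of 0.607 in limma and 0.188 in DESeq2. It stayed between 0.79 and 0.93 under the 12 alternatives run for it, and no alternative passed the threshold. The other sinusoidal receptors differed less, Stab2 at 226 and 220.3 against 261 and 254 and Stab1 at 178 and 205 against 226 and 236. Their log2 fold changes were 0.21 (SE 0.22) and 0.27 (SE 0.23), the latter 0.17 without control replicate 1.

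Pecam1 in liver had a signal of 46.9 and 65.4 in controls and 85.8 and 78.0 in mutants, a log2 fold change of 0.56 (SE 0.25, limma adjusted p 0.785) that was 0.32 without control replicate 1. Cdh5 had 80.5 and 103 against 111 and 109, and Kdr had 88.0 and 116 against 117 and 123. In both the higher control nearly reached the mutants. The 4 members that overlapped were Flt1 (27.3 and 38.0 against 36.6 and 51.4), Tie1 (34.9 and 63.7 against 56.1 and 62.7), Tek and Eng. Tek was nearly level, at 26.4 and 28.8 against 25.8 and 30.8, and Eng had 94.2 and 109 against 99.3 and 121.

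In brain the members' values lay close to those of the controls. The log2 fold change was above 0 for 3 of 9, against 46.1% of all genes, with a median of -0.04, against -0.01 over all genes, and a range of -0.11 to 0.25. Both mutants lay above both controls for 1 of 9, against 13.8% of all genes, and below them for 0 of 9, against 16.2%. That gene was Lyve1, with a signal of 6.34 and 8.32 in controls and 8.33 and 9.09 in mutants, a gap smaller than the spread of either group. The SE of these log2 fold changes was 0.13 to 0.21. Kdr had 56.6 and 49.0 against 53.7 and 44.8, Cdh5 42.7 and 35.5 against 47.8 and 33.3, and Pecam1 26.9 and 26.1 against 36.4 and 25.9. In each of these the mutants spanned or reached the controls. Limma gave every tested member an adjusted p of 0.999988.

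In fibroblasts 4 members were tested, and the log2 fold change was above 0 for 1 of them, against 48.9% of all genes. Tek had a signal of 4.99, 6.68 and 4.41 in controls and 0.650, 4.62 and 3.65 in mutants. The low mutant, replicate 1, held 14 reads, and the groups overlapped. The log2 fold change was -0.99 (SE 0.57) with a limma adjusted p of 0.999667, and it was -0.33 without that replicate. Eng had 61.6, 73.8 and 63.3 against 77.8, 55.7 and 83.9, a log2 fold change of 0.11 (SE 0.18). Pecam1 lay between 0.684 and 2.43 and Flt1 between 0.822 and 3.29 over the 6 libraries, with log2 fold changes of -0.26 (SE 0.41) and -0.29 (SE 0.51). Lyve1, Stab1, Stab2, Cdh5, Kdr and Tie1 had at most 34 reads in any fibroblast library. None of the tested members was separated, against 2.07% of all genes above and 1.66% below.

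**Figure D3:**
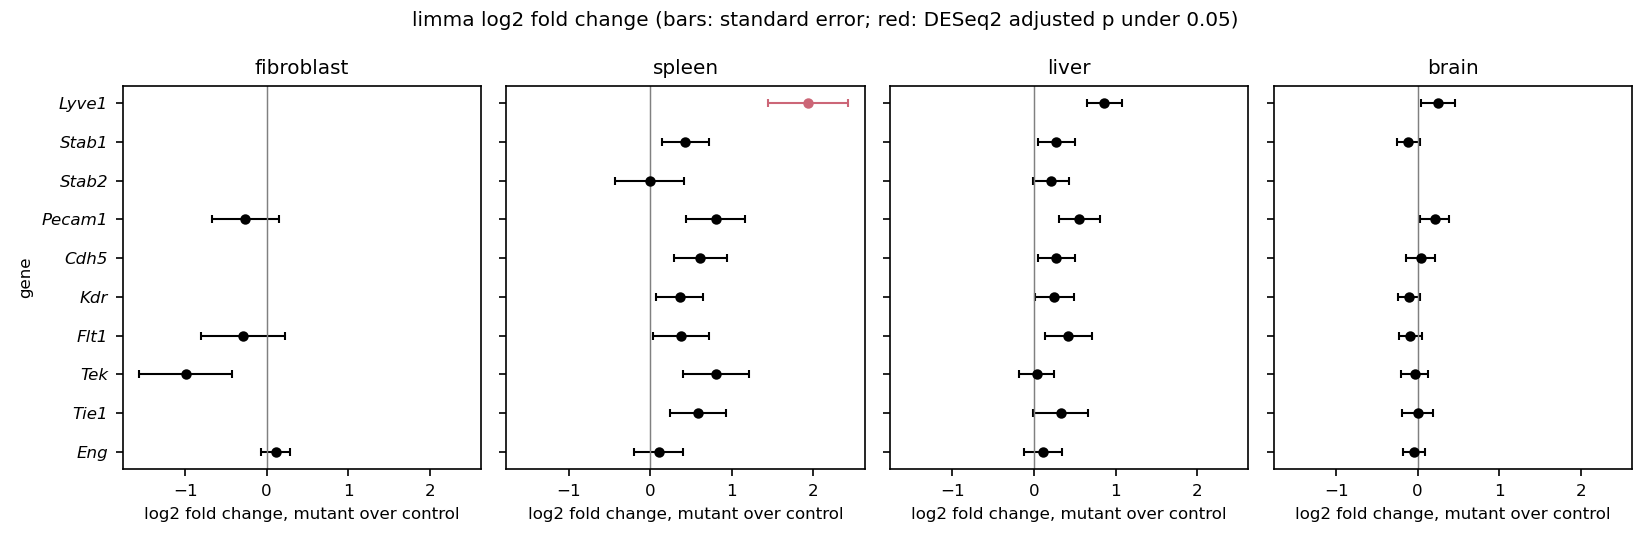
Limma log2 fold change of mutant over control (x axis) for each tested member (y axis) in 4 tissues, with bars for the standard error and red for a DESeq2 adjusted p under 0.05. Spleen and liver values lie mostly to the right of 0, at medians of 0.51 and 0.27, and brain values lie around 0.

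Differences of the genotype effect between tissues were tested for each member and tissue pair, 40 tests by exact permutation of the genotype labels within tissues, two-sided. The smallest p was 0.05, for Tek in fibroblasts against spleen with a difference of -1.80, and after Benjamini-Hochberg adjustment it was 0.72. For Lyve1 the spleen difference exceeded the liver one by 1.08 (exact p = 0.5) and the brain one by 1.69 (exact p = 0.333). With 2 against 2 libraries in both tissues the smallest possible p is 0.0556, and for fibroblasts against an organ it is 0.0167. Over 40 tests no adjusted p could therefore pass 0.05, whatever the data. The test cannot decide whether the effect differed between tissues.

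Lyve1 was also read against the other vessel genes of its own library, as a percentage of the summed level per kb of Pecam1, Cdh5, Kdr, Flt1, Tek, Tie1 and Eng. In liver it was 50.1% and 37.2% in controls and 65.1% and 66.4% in mutants. In spleen it was 1.31% and 0.518% against 3.25% and 1.83%, and in brain 5.67% and 8.26% against 7.03% and 9.52%. Both mutants lay above both controls in liver and spleen, and the brain groups overlapped. Stab1 and Stab2 overlapped on this scale in all 3 organs, Stab1 at 23.3% and 20.7% against 22.6% and 21.9% in liver. Among the 7 genes of the sum, Pecam1 was also higher in both mutants in all 3 organs. In liver it was 10.1% and 10.9% against 14.1% and 11.9%. Cdh5 was higher in both mutants in spleen. Eng in spleen, Tek in liver, and Kdr and Flt1 in brain were lower in both mutants. Each of the 7 genes is also part of its own sum. How many of all genes would separate on this scale was not counted. On plain signal both mutants lay above both controls for 18.3% of all genes in spleen, 23.4% in liver and 13.8% in brain. They lay below both controls for 21.9%, 13.1% and 16.2%. With 2 against 2 libraries an exact permutation test cannot give a p below 0.333, so these percentages carry no test.

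**Figure D4:**
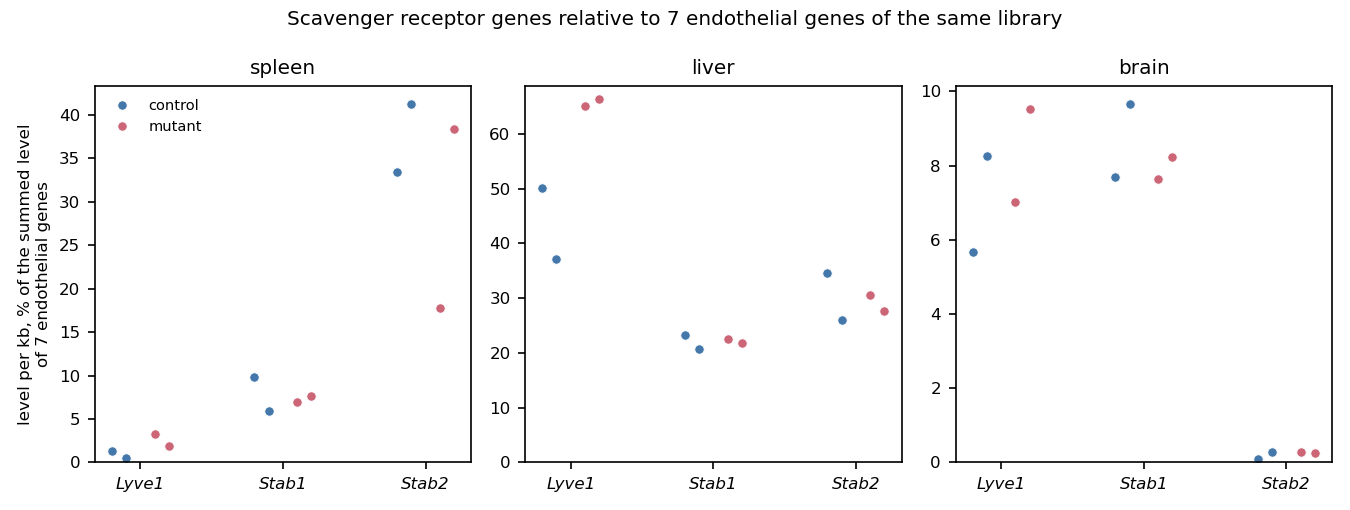
Level per kb of Lyve1, Stab1 and Stab2 as a percentage of the summed level per kb of 7 endothelial genes in the same library, for controls (blue) and mutants (red) in 3 organs, each panel with its own y axis from 0. Lyve1 is at 65.1% and 66.4% in the liver mutants and at 50.1% and 37.2% in the controls, while Stab1 and Stab2 overlap.

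Most other endothelial genes also had higher values in the spleen mutants. Of 22 further endothelial genes, 21 had a log2 fold change above 0, against 43.5% of all genes, with a median of 0.57. Limma called 0 of them, and both mutants lay above both controls for 13, against 18.3% of all genes. DESeq2 called 1 of the 22, against 1.08% of all genes. This was Emcn, a sialomucin of venous and sinusoidal endothelium, at 3.52 and 5.07 in controls and 36.1 and 10.6 in mutants (log2 fold change 2.51, adjusted p 0.00341). Robo4, an endothelial guidance receptor, had 31.5 and 33.4 against 64.6 and 56.6 and did not pass (DESeq2 adjusted p 0.224). Mutant replicate 1 was the higher mutant for both, as for Lyve1. Without it 19 of the 22 genes were above 0, with a median of 0.40, and DESeq2 gave Emcn a log2 fold change of 1.29 and an adjusted p of 0.999982.

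The ligands and partners of the receptors were counted in the same way in spleen, where 43.5% of all genes were above 0 and DESeq2 called 1.08%. Of 14 genes of vascular endothelial growth factor signalling, 13 were above 0 with a median of 0.52, and 0 were called by limma or DESeq2. Vegfc, a growth factor for lymphatic vessels, had 8.89 and 10.6 against 35.4 and 12.9. Of 7 tested genes around angiopoietin and Tek, 4 were above 0 and 0 were called, with Angpt2, a ligand of Tek, at 9.38 and 19.6 against 22.2 and 28.0. Of 17 tested genes of the Eng pathway, 14 were above 0 and 1 rose by DESeq2. This was Tgfbr3, a co-receptor related to Eng, at 130.2 and 170.3 against 392 and 299.6 (log2 fold change 1.25, adjusted p 0.0471), a call lost without mutant replicate 1 at a log2 fold change of 0.99 (adjusted p 0.999982). Of 23 adhesion and junction genes, 21 were above 0 and 0 were called. Without mutant replicate 1 the genes above 0 in these 4 lists were 14 of 14, 5 of 7, 17 of 17 and 21 of 23, against 48.6% of all genes tested.

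Among 17 scavenger receptor and hyaluronan genes, 11 were above 0 in spleen, against 43.5% of all genes. Of the 17, 2 rose by DESeq2, against 0.931% of all genes. Scara5, a ferritin receptor of stromal and epithelial cells, had 1.59 and 2.74 against 13.1 and 19.0 (adjusted p 2.4e-06), and Scara3 had 2.07 and 2.03 against 6.46 and 8.68 (adjusted p 0.0305). Of 14 tested genes of brain endothelium, 9 were above 0 in spleen and Spock2, a matrix proteoglycan, rose from 27.6 and 34.2 to 103 and 86.8 (DESeq2 adjusted p 0.00092). Limma gave these 3 genes adjusted p-values of 0.206, 0.445 and 0.258. Their DESeq2 log2 fold changes were 2.92, 1.93 and 1.67, and without mutant replicate 1 they were 3.12, 2.08 and 1.48. The adjusted p was then 0.0122 for Scara5, while Scara3 and Spock2 did not pass (0.845 and 0.922).

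Of 13 marker lists of other cell types in spleen, 5 had a higher summed signal in both mutants than in both controls, 1 had a lower one and 7 overlapped. All 10 fibroblast markers were above 0, against 43.5% of all genes, and 9 had both mutants above both controls, against 18.3%. Their summed signal was 1825 to 2174 in controls and 3008 to 4924 in mutants. Pdgfra, the growth factor receptor of mesenchymal cells, rose from 109 and 146 to 516 and 455 and the matrix gene Dcn from 25.2 and 26.6 to 53.9 and 62.9 by DESeq2, with log2 fold changes of 1.98 and 1.21 (adjusted p 7.77e-06 and 0.0441). Without mutant replicate 1 the log2 fold changes were 1.83 and 1.27, and neither passed (adjusted p 0.212 and 0.999982). All 9 tested mural cell markers were above 0, and their sum was 778 to 981 in controls and 991 to 1302 in mutants. Of 7 splenic stroma markers 6 were above 0, at 165 to 259 against 268 to 291, and all 5 tested neuron markers were, at low sums of 12.6 to 15.5 against 29.1 to 35.8. DESeq2 called 1 of the 7 splenic stroma markers higher, against 0.931% of all genes. The astrocyte and oligodendrocyte list, which includes Pdgfra, had 4 of 7 above 0, at 226 to 280.2 against 533 to 603. Of these 7 genes DESeq2 called 1 higher, Pdgfra, and 1 lower, against 1.08% of all genes called. The lower list, compiled for choroid plexus and ependyma, had 1 of 2 tested genes above 0, at 467 to 1225 against 398 to 452. It holds 7 genes and shares Ttr with the hepatocyte list, so its sum is not specific to choroid plexus. The lists that overlapped differed in direction. Of 10 erythroid markers 0 were above 0, with a sum of 20779 to 40615 against 17633 to 22109. Of 11 megakaryocyte markers 0 were above 0, at 333 to 529 against 103 to 515, and of 14 tested macrophage markers 10 were above 0, at 813 to 1263 against 887 to 1548. Of the stellate, hepatocyte, neutrophil and lymphocyte markers 6 of 9, 8 of 9, 1 of 10 and 4 of 11 were above 0. Without mutant replicate 1 the fibroblast, mural, erythroid, megakaryocyte and macrophage lists had 10 of 10, 5 of 9, 1 of 10, 10 of 11 and 13 of 14 genes above 0, and the neuron list 5 of 5. For comparison, 12 core endothelial genes, 7 of them members, summed to 941 to 1284 in controls and 1385 to 1806 in mutants. The part of these cells in the member values was not tested.

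In the liver, 15 of 20 tested genes of sinusoidal endothelium were above 0, against 55.9% of all genes. Their median was 0.30, against 0.05 over all genes. In 8 both mutants lay above both controls, against 23.4% of all genes. Limma and DESeq2 called 0 of the 20. In spleen the same list had 12 of 17 above 0, with a median of 0.16. Of the 22 further endothelial genes, 18 were above 0 in liver (median 0.18). The adhesion and junction list had 12 of 22 above 0 there (median 0.03). The Eng pathway list had 11 of 19 (0.11) and the brain endothelium list 10 of 15 (0.04). The mannose receptor gene Mrc1, which macrophages share, had 122 and 101 against 150.1 and 228, and the endocytosis gene Ehd3 had 102 and 115 against 214 and 159. Of 16 tested transcription factor genes of endothelium, 13 were above 0 in liver (median 0.11). Both mutants lay above both controls for 3 of them, against 23.4% of all genes. DESeq2 called 1 of the 16 higher, against 0.978% of all genes. This was Klf2, a transcription factor induced by blood flow in endothelium. Its signal was 5.85 and 7.88 in controls and 38.5 and 15.5 in mutants (DESeq2 log2 fold change 1.93, adjusted p 0.0278, limma adjusted p 0.642). Of 11 tested genes of vascular endothelial growth factor signalling, 10 were above 0 and 0 were called, with Vegfa, the main ligand of Kdr, at 93.3 and 147 against 353 and 189 (DESeq2 adjusted p 0.319). S1pr1, a lipid receptor of endothelium and lymphocytes, had lower values in both mutants, 28.6 and 35.6 against 16.3 and 20.0, and did not pass (DESeq2 adjusted p 0.191).

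Of 12 marker lists of other cell types in liver, 3 had a higher sum in both mutants (fibroblast, neuron, and astrocyte and oligodendrocyte), 1 a lower one and 8 overlapped. The lower one was the list compiled for choroid plexus and ependyma, with 3 of its 7 genes tested in liver. It shares Ttr with the hepatocyte list, so its sum is not specific to choroid plexus. All 8 tested fibroblast markers were above 0 with both mutants above both controls, against 23.4% of all genes so separated. Their list summed to 447 to 533 in controls and 624 to 740 in mutants. Of 16 macrophage markers 7 were above 0, at 839 to 1068 against 801 to 1154, and of 10 hepatocyte markers 3 were, at 124548 to 136495 against 123015 to 139472. DESeq2 called 1 of the 10 hepatocyte markers higher, against 0.978% of all genes. Of 10 erythroid markers 9 were above 0, at 7808 to 23346 against 12879 to 29416, with overlapping groups. The core endothelial genes summed to 480 to 619 in controls and 644 to 688 in mutants. The part of other cells in the liver values was not tested.

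**Figure D5:**
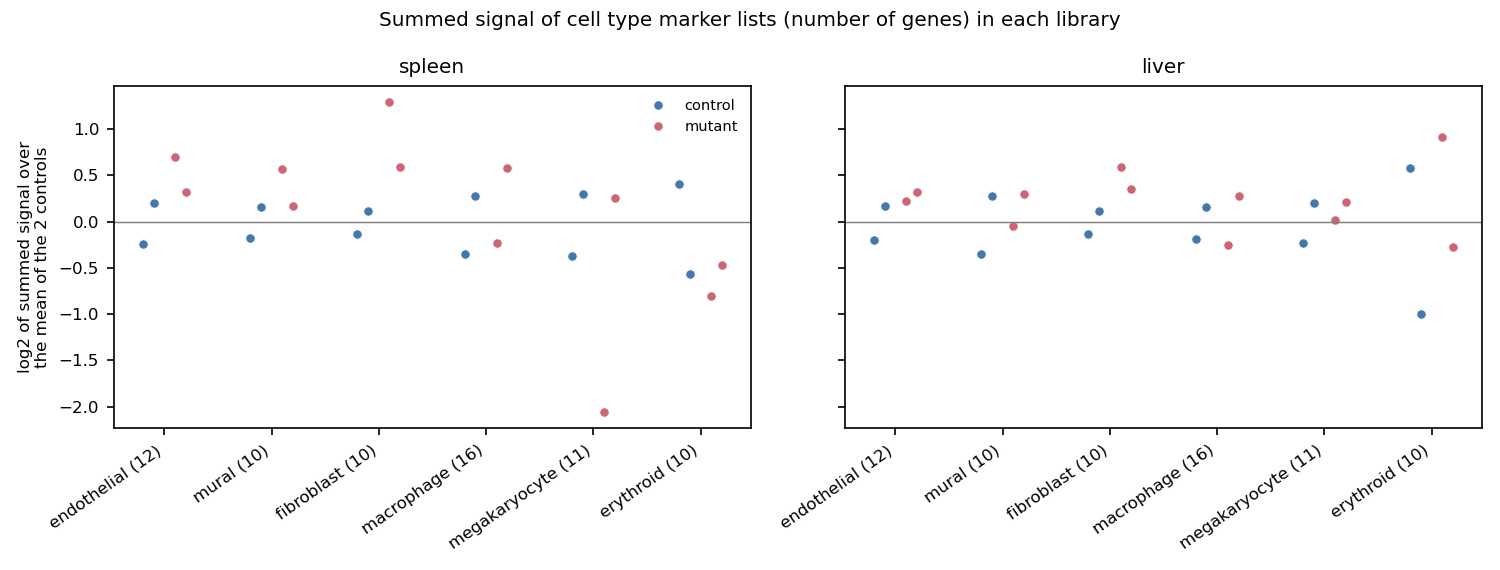
Log2 of the summed signal of 6 marker lists in each spleen and liver library over the mean of the 2 controls of that organ, for controls (blue) and mutants (red), with the number of genes per list in brackets. In spleen both mutants lie above both controls for endothelial, mural and fibroblast markers, and mutant replicate 1 has the lowest megakaryocyte sum (103).

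In brain 46.1% of all genes tested were above 0, and DESeq2 called 0.241% of all. Genes of the barrier endothelium were spread around 0, with 11 of 19 above 0 and a median of 0.03. DESeq2 called 1 of them, the glucose transporter Slc2a1, which rose from 54.1 and 60.2 to 123 and 81.9 (adjusted p 0.00513, limma adjusted p 0.504). Of 13 genes of haemostasis and vessel tone, 10 were above 0 and Edn1, the vasoconstrictor endothelin, rose by DESeq2 from 1.80 and 1.33 to 9.50 and 4.06 (adjusted p 0.00842, limma adjusted p 0.475). Neither gene is restricted to endothelium. The 12 core endothelial genes summed to 294 to 331 in control and 291 to 348 in mutant brain, so the groups covered the same range.

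Genes whose level per kb followed the members most closely over the 18 libraries were named by their Pearson r, among 20519 genes, on log2(level per kb + 0.5). The points share 4 tissues, and the r is a description of these libraries. For the mean of Pecam1, Cdh5, Kdr, Flt1, Tek, Tie1 and Eng the closest were Plvap, Erg, Icam2, Ushbp1, Mmrn2, Ccm2l, Stxbp2 and Scarf1, with r from 0.990 to 0.996. Eng itself followed the other 6 with an r of 0.48, against 0.96 to 0.99 for each of those 6. For the mean of Lyve1, Stab1 and Stab2 the closest were Whamm, Gm15163, Ppfibp2, Lepr, Gm7357, Nostrin, Fcna and C130074G19Rik, with r from 0.979 to 0.989. After the mean of each tissue was subtracted, Kdr followed the other endothelial members with an r of 0.95 and Tek with 0.56. On that scale Stab2 had an r of -0.07 with the mean of Lyve1 and Stab1, while Stab1 had 0.64 and Lyve1 0.55 with the mean of the other members of that trio. The genes closest to the 7 endothelial members were then Sh3tc1, Jam2, Cd33, Rufy2, Dcbld1, Rapgef5, Sptbn1 and Hunk, with r from 0.929 to 0.945. Those closest to the scavenger receptor trio were Tlr7, Zfp36l1-ps, Tmem159, Jdp2, Gm27252, Adamtsl2, Zbtb16 and Prex2, with r from 0.924 to 0.962. Plvap, Erg and the others named on levels were not among them.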

How the data were processed

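Total RNA was extracted with Trizol and depleted of ribosomal RNA, per the labels' protocols. HTSeq 0.6.1 and edgeR (version not given) are the tools, and GRCm38 the build, per the submitters' processing notes. The sources used here name no aligner or annotation. The deposited signal values are the authors' scaled counts per gene, with 1 separately normalized table for each tissue. Dividing by the smallest step of a library gave whole reads for 100% of its values above 0 (tolerance 0.05). A library's 3 reads, the limit for a count of 0, were a signal of 0.103 to 0.225.

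All identifiers entered the fits. GENCODE release 21 did not name 935 of them, which have no level per kb. Genes with a table mean signal of at least 1 were compared per tissue on log2(signal + 0.5), by limma 3.58.1 with a mean-variance trend in R 4.3.3. Tests were two-sided, and p-values were adjusted by Benjamini-Hochberg over the table, with a threshold of 0.05. This scale understates changes of low genes. The alternatives on recovered reads, DESeq2 1.42.0 and quasi-likelihood edgeR 4.0.16, called 3 and 0 of 13110 genes in fibroblasts, 179 and 0 of 16648 in spleen, 215 and 0 of 15128 in liver, and 41 and 4 of 17008 in brain. Other alternatives were the pseudocount, the low filter, CPM scaling, the replicate block and leaving out each library. The scripts were tested on simulated data. Named genes were all members and the 8 genes most like the members. Others were drawn, per list and tissue, from up to 3 genes with the smallest limma p at a mean signal of at least 5. List genes past the threshold of limma or DESeq2 were drawn on as well. Not every gene that met these rules is named, and some called marker genes are given only as counts. Members and lists were chosen with earlier results of these data known.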

Additional observations from a re-analysis of the deposited data

How the results depend on the processing

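For the members past the threshold in spleen (0 with limma), DESeq2 gave 1 and the fit with the replicate block gave 1, Lyve1 in both cases. Leaving out 1 library at a time gave 0 to 1 with limma, the 1 being Lyve1 without mutant replicate 2 (adjusted p 0.00268), and 0 to 3 with DESeq2, a set of fits chosen after seeing the data, like the list counts without spleen mutant replicate 1. In those fits a lone library is assumed to vary like the other group. In fibroblasts, liver and brain the count was 0 under every alternative run. Control level ratios between organs kept their direction under the alternatives run. Low counts limit Lyve1 in spleen and most members in fibroblasts.

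The labels give replicate numbers but do not say that equal numbers share a litter or day. Deviations of equally numbered libraries correlated at -0.08, 0.43 and 0.02 in fibroblasts, -0.03 in spleen, 0.58 in liver and 0.08 in brain. The numbers were therefore not taken as pairs in the main fit. The share of satellite-like genes was, however, higher in replicate 1 than in replicate 2 of both genotypes in each organ. It was 1.76% against 0.00316% in liver controls and 0.394% against 0.00745% in liver mutants. Whether equal numbers share a batch was not tested. With the replicate block limma called 0, 359, 62 and 4 genes of all tested in fibroblasts, spleen, liver and brain, and Lyve1 in spleen had an adjusted p of 0.000347.

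Small log2 fold changes changed sign. Stab2 in spleen was 0.079 on CPM, 0.0094 with DESeq2 and 0.028 with edgeR, and with DESeq2 0.48 without control replicate 2 and 0.28 without mutant replicate 1. Eng in spleen was -0.084 with DESeq2 without control replicate 1. Tek in liver was -0.028 with DESeq2 and -0.021 with edgeR, and Tie1 in brain was 0.018 on CPM, 0.024 with DESeq2 and 0.025 with edgeR. The cause was not tested. Leaving out 1 library at a time, limma gave log2 fold changes on both sides of 0 in these cases. In fibroblasts the range was -0.48 to 0.17 for Pecam1, -0.79 to 0.039 for Flt1 and -0.0044 to 0.29 for Eng. In spleen the range was -0.40 to 0.39 for Stab2 and -0.13 to 0.34 for Eng. In liver the range was -0.092 to 0.16 for Tek, -0.10 to 0.76 for Tie1 and -0.027 to 0.26 for Eng. In brain the range was -0.034 to 0.45 for Pecam1, -0.22 to 0.29 for Cdh5, -0.23 to 0.026 for Kdr, -0.21 to 0.026 for Flt1, -0.10 to 0.025 for Tek and -0.24 to 0.24 for Tie1.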
